A study of Arabidopsis thaliana with 8 samples.

Results

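The WRKY family of Arabidopsis thaliana was followed in seedlings that carry a repressor form of the transcription factor MYB87 and in wild-type seedlings. The members were chosen by locus, as 56 listed WRKY genes among the 25665 loci that the array probes name. Of these members, 54 gave enough signal to be tested, among 20336 tested loci. WRKY38 and its relative WRKY62 were set against the rest of the family.

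The data comprised 8 one-colour (Cy3) Agilent arrays of total RNA from whole seedlings of the Columbia-0 ecotype, aged 2 weeks. The 4 samples of the first group carried 35S:MYB87-SRDX, in which MYB87, an R2R3-type MYB factor, is fused to SRDX, a short repression motif. The 35S promoter is active in most tissues, so the fusion was not limited to the cells where MYB87 is normally expressed, and no group carried MYB87 without SRDX. The 4 samples of the second group were wild type. Per the labels, each sample of either genotype held 5 seedlings of the T2 generation, grown on MS agar with 1% sucrose at 23 °C in cycles of 16 h light and 8 h dark. Hygromycin was in the medium of the MYB87-SRDX seedlings and was absent from that of the wild type. Each genotype was also hybridised on its own slide, so genotype, hygromycin and slide cannot be told apart in any value below. The labels do not say whether samples of a genotype came from separate plates or independent transgenic lines, and the p-values reflect the variation of these samples alone, which may be technical.

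WRKY factors are plant transcription factors named after the WRKY amino acids of their DNA-binding domain, which recognises the W-box, a short element with a TGAC core. They are sorted into group I, with a pair of WRKY domains, groups IIa to IIe and group III, which differ in their zinc finger and in neighbouring motifs. Many of them act downstream of pathogen recognition, MAP kinases and salicylate, where some activate and others repress defence genes. Others act in senescence, phosphate uptake, trichomes, seed coat, flowering and secondary walls.

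The labels were checked with MYB87 itself (AT4G37780). Signal is given throughout as log2 above or below the array's own 75th percentile. MYB87 was at 5.75, 5.52, 5.58 and 2.54 on the 4 MYB87-SRDX arrays and -5.48, -7.20, -7.44 and -7.08 on the 4 wild-type arrays. All MYB87-SRDX arrays lay far above all wild-type arrays, and MYB87-SRDX replicate 4 was the lowest of its group. The difference was 11.65 ± 0.77 (SE, n = 4 each), with an adjusted p of 0.000532 (limma, Benjamini-Hochberg over all tested loci). MYB87 was well above background on 4 MYB87-SRDX arrays and on 2 of the wild-type arrays, so the size of this fitted difference rests in part on wild-type signal below background. The 75th percentile of the processed signal was between 1539 and 2055 on the 8 arrays, and the share of spots well above background ran from 63.1% to 65.5%. The number of arrays limits the precision. In whole seedlings, fewer cells of a type and less RNA per cell cannot be told apart.

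Among the tested members, 9 were higher and 9 were lower in MYB87-SRDX seedlings than in wild type at an adjusted p below 0.05. Each count is 16.7% of the 54 members. Over all tested loci, 15.1% were called higher and 12.5% lower, or 27.6% in all against 33.3% of the members, so the family as a whole was called about as often as other genes. The median log2 difference of the members was -0.21, or -0.19 without WRKY38, and that of all tested loci was 0.01. The groups did not overlap for 9 members that were higher and 11 that were lower, where 17.7% and 13.1% of all tested loci showed no overlap. A call with at least a 2-fold change was made for 3 members that were higher (5.56%) and 2 that were lower (3.70%), beside 1.83% and 2.43% of all tested loci. With each array's median in place of its 75th percentile, the split was 9 higher and 5 lower, and 64.3% of the called members were higher where it was 50% before. The count of members called lower was also 5 without MYB87-SRDX replicate 1 and 5 without wild-type replicate 2. Over all tested loci, the count called lower was 2540, against 1381 with median scaling, 1505 without MYB87-SRDX replicate 1 and 1371 without wild-type replicate 2. Without MYB87-SRDX replicate 4, in which MYB87 was lowest, 8 members were higher and 7 lower.

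**Figure D1:**
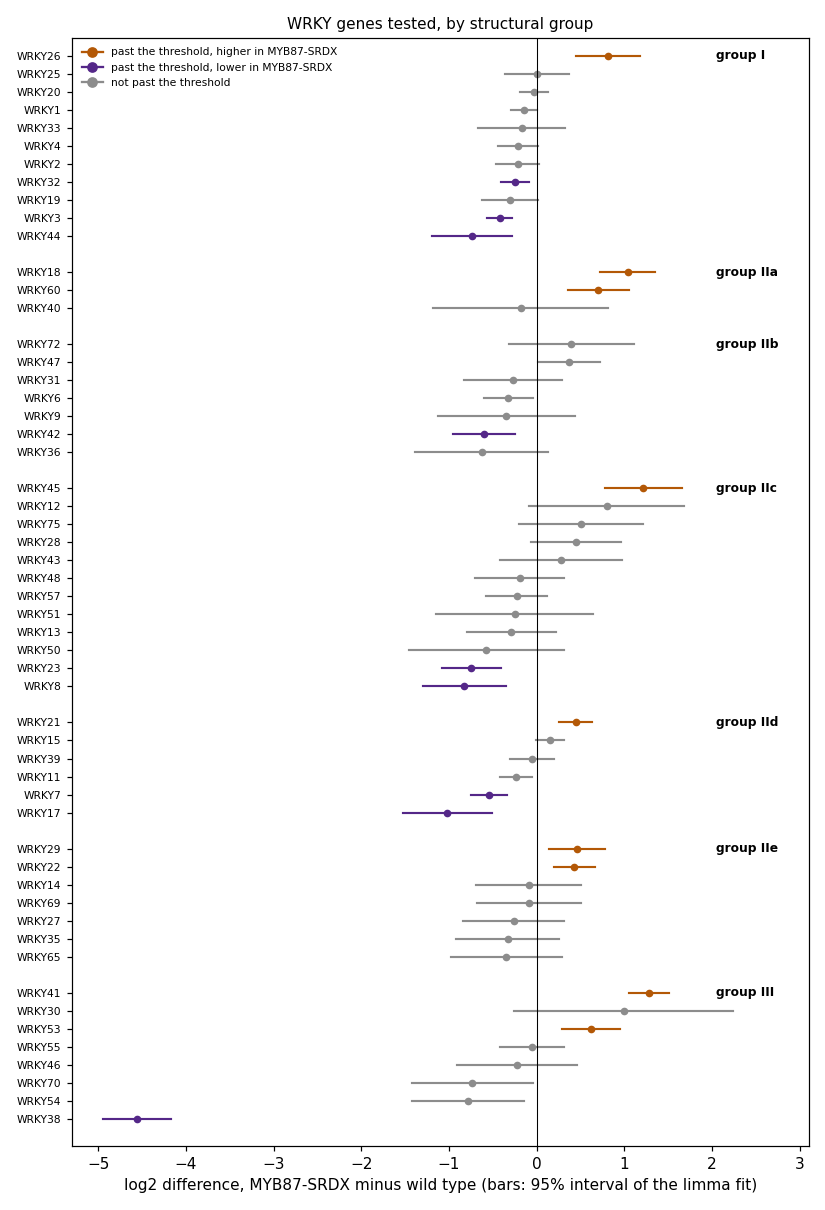
Log2 difference (MYB87-SRDX minus wild type, x axis) of each tested WRKY gene, with the 95% interval of the limma fit, sorted by structural group. WRKY38 lies at -4.56, a fitted value that rests on signal below background in MYB87-SRDX, while all other members lie between -1.02 and 1.28.

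WRKY38 (AT5G22570), a group III factor that represses basal defence in Arabidopsis and binds the histone deacetylase HDA19, had the largest change of the family. Its log2 signal was -9.24, -9.44, -9.18 and -9.18 on the MYB87-SRDX arrays and -4.29, -4.58, -4.84 and -5.11 on the wild-type arrays. The wild-type signal was low but well above background on 4 of 4 arrays, and the MYB87-SRDX signal was well above background on 0 of 4. On the linear scale of the processed signal the MYB87-SRDX arrays gave 2.55, 2.74, 2.85 and 2.76, and the wild-type arrays 85.8, 85.7, 68.8 and 46.5. The lowest signal of any spot was 2.42, 2.50, 2.60 and 2.57 on the same MYB87-SRDX arrays, so WRKY38 lay next to the bottom of the range there. Its level in MYB87-SRDX therefore has only an upper limit. The lowest signal that counted as well above background on each MYB87-SRDX array was taken as that limit. Set against it, the wild-type mean put WRKY38 at least 5.05-fold lower in MYB87-SRDX. This limit is not strict, since WRKY50 lay above it on MYB87-SRDX replicates 1 and 2 but was well above background on only 1 MYB87-SRDX array. Leaving out each wild-type array in turn gave bounds between 4.59-fold and 5.54-fold.

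The fitted log2 difference of WRKY38 was -4.56 ± 0.17 (SE, n = 4 each; limma adjusted p = 3.41e-05). This fitted value depends on how low signal is treated and is not a size: with normexp background correction it was -0.95 (limma adjusted p = 0.00173). That correction adds an offset of 50 to each spot, beside wild-type processed signals of 46.5 to 85.8. The offset alone shrinks the difference, so -0.95 is not a size either. The call was kept in all 17 alternatives that gave a value. These reuse the same MYB87-SRDX spots below background, so the kept calls are not separate evidence. WRKY38 passed the signal filter through its wild-type arrays alone. The small SD of the spots below background (0.13 in MYB87-SRDX, 0.35 in wild type) enters the p-values. The bound does not depend on that SD. WRKY38 was among 43 loci that were well above background on every wild-type array and on no MYB87-SRDX array, and it had the fourth largest bound of them. No other listed WRKY gene showed that pattern. The opposite pattern, signal on every MYB87-SRDX array and on no wild-type array, was found for 41 loci, with 0 WRKY members among them.

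WRKY62 (AT5G01900), the close relative that acts with WRKY38 as a repressor of basal defence, did not have enough signal to be tested. Its log2 signal was -7.49, -6.47, -7.33 and -6.69 on the MYB87-SRDX arrays and -7.60, -7.35, -6.54 and -7.61 on the wild-type arrays. The groups overlapped, with a mean of -7.00 ± 0.49 in MYB87-SRDX and -7.27 ± 0.51 in wild type (SD, n = 4 each). It was well above background on 2 MYB87-SRDX arrays and 1 wild-type array, so no loss of WRKY62 like that of WRKY38 could have been seen at this signal. WRKY10 (AT1G55600), known as MINISEED3 and active in the endosperm of the seed, gave no signal well above background on the arrays and was not tested either.

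**Figure D2:**
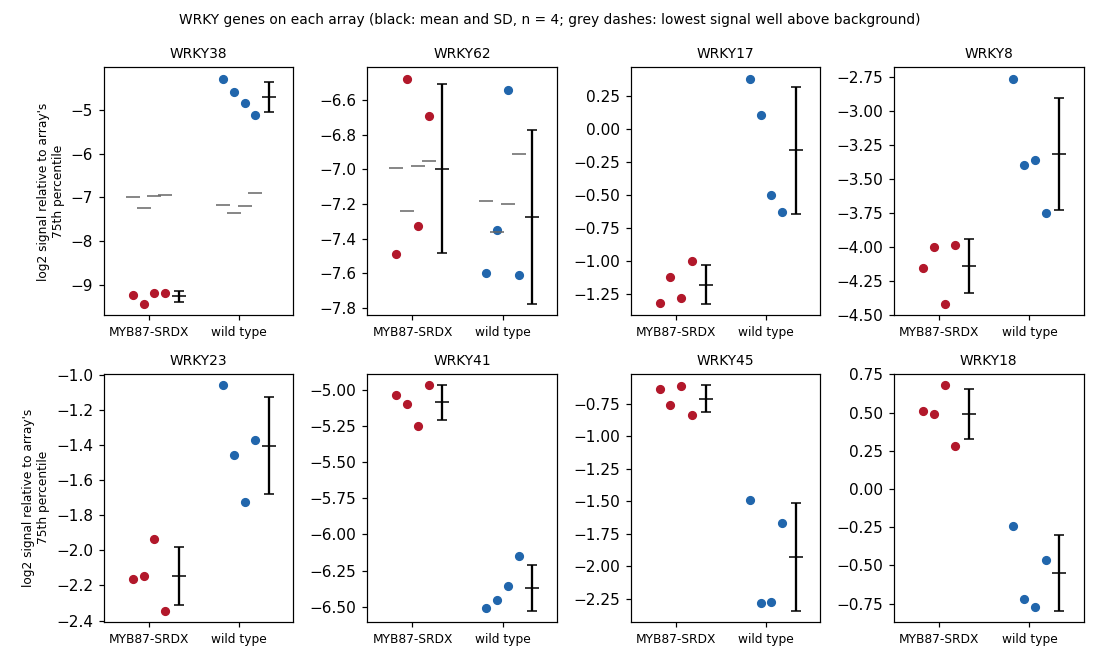
Log2 signal relative to each array's 75th percentile (y axis) of WRKY38, WRKY62 and the members with the largest rises and falls, with 4 MYB87-SRDX arrays left of 4 wild-type arrays in each panel. Points are arrays, black marks show mean and SD, and grey dashes show the lowest signal well above background, under which the MYB87-SRDX points of WRKY38 lie.

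The largest rise was that of WRKY41 (AT4G11070), a group III factor that responds to bacterial flagellin and acts in seed dormancy. Its log2 signal was -5.03, -5.10, -5.25 and -4.97 on the MYB87-SRDX arrays and -6.51, -6.45, -6.36 and -6.15 on the wild-type arrays. The groups did not overlap, and the difference was 1.28 ± 0.10 (SE; limma adjusted p = 0.000681). Its signal was low in both genotypes, and normexp background correction gave a difference of 0.41, with the call kept.

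WRKY45 (AT3G01970), a group IIc factor that acts in phosphate uptake and leaf senescence, gave -0.64, -0.76, -0.61 and -0.84 on the MYB87-SRDX arrays and -1.49, -2.28, -2.28 and -1.67 on the wild-type arrays. All MYB87-SRDX arrays were above all wild-type arrays, by a mean of 1.22 ± 0.19 (SE; limma adjusted p = 0.00467). WRKY18 (AT4G31800), a group IIa factor that restrains basal resistance together with WRKY40 and WRKY60, gave 0.51, 0.49, 0.68 and 0.28 on the MYB87-SRDX arrays and -0.24, -0.72, -0.77 and -0.46 on the wild-type arrays. The groups were again apart, with a difference of 1.04 ± 0.14 (SE; limma adjusted p = 0.00273).

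The other 6 rises were under 2-fold. WRKY60 (AT2G25000), the partner of WRKY18, averaged 1.25 ± 0.21 in MYB87-SRDX and 0.55 ± 0.26 in wild type (SD, n = 4 each), a difference of 0.70 with a limma adjusted p of 0.0139. WRKY26 (AT5G07100), which acts with WRKY25 and WRKY33 in heat tolerance, averaged -1.73 ± 0.23 in MYB87-SRDX and -2.54 ± 0.26 in wild type, a difference of 0.81 (limma adjusted p = 0.00967). WRKY53 (AT4G23810), a promoter of leaf senescence and the nearest relative of WRKY41, was higher by 0.62 (limma adjusted p = 0.0174). Its call was lost without MYB87-SRDX replicate 1 (0.58, adjusted p = 0.0522) and without wild-type replicate 2 (0.57, adjusted p = 0.0553).

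WRKY22 (AT4G01250) and WRKY29 (AT4G23550), both group IIe factors placed downstream of the flagellin receptor FLS2 and its MAP kinases, were higher by 0.43 and 0.46 (limma adjusted p = 0.0188 and 0.041). For WRKY22 the call was lost without MYB87-SRDX replicate 1, wild-type replicate 2 or wild-type replicate 3, with adjusted p between 0.05 and 0.0565. For WRKY29 it was lost on leaving out any 1 array other than wild-type replicate 1, with adjusted p between 0.0552 and 0.0893 and differences between 0.34 and 0.53. WRKY21 (AT2G30590), of the calmodulin-binding group IId, averaged 1.90 ± 0.14 in MYB87-SRDX and 1.46 ± 0.05 in wild type, a difference of 0.44 (limma adjusted p = 0.00738).

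Among the falls other than WRKY38, WRKY17 (AT2G24570) had the largest. It is a group IId factor that, with WRKY11, lowers basal resistance to bacteria. Its log2 signal was -1.31, -1.12, -1.28 and -1.0 on the MYB87-SRDX arrays and 0.38, 0.11, -0.50 and -0.62 on the wild-type arrays. The wild-type arrays were spread over a wide range but all lay above MYB87-SRDX, and the difference was -1.02 ± 0.22 (SE; limma adjusted p = 0.0144).

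WRKY8 (AT5G46350), a group IIc factor of salt stress and virus defence, gave -4.15, -4.00, -4.42 and -3.99 on the MYB87-SRDX arrays and -2.76, -3.39, -3.36 and -3.75 on the wild-type arrays. The groups did not overlap, and the difference was -0.82 ± 0.20 (SE; limma adjusted p = 0.0219). The call was lost without MYB87-SRDX replicate 1 (-0.82, adjusted p = 0.0579) and without wild-type replicate 2 (-0.85, adjusted p = 0.0539), and normexp background correction moved the difference to -0.45. WRKY23 (AT2G47260), an auxin-responsive group IIc factor of root growth, gave -2.16, -2.15, -1.94 and -2.34 on the MYB87-SRDX arrays and -1.06, -1.46, -1.72 and -1.37 on the wild-type arrays. Every MYB87-SRDX array was below every wild-type array, by a mean of 0.74 on the log2 scale (SE 0.15; limma adjusted p = 0.00996).

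WRKY44 (AT2G37260), better known as TTG2 for its part in trichome and seed coat development, averaged -3.12 ± 0.31 in MYB87-SRDX and -2.39 ± 0.31 in wild type (SD, n = 4 each). The groups overlapped, and the difference of -0.74 passed the threshold with a limma adjusted p of 0.0288. The call was lost on leaving out any 1 array other than MYB87-SRDX replicate 3 or wild-type replicate 1, with adjusted p between 0.0556 and 0.0817. It was also lost with quantile scaling, median scaling and the authors' values (limma adjusted p = 0.0757, 0.0697 and 0.0879). WRKY42 (AT4G04450), which acts in phosphate transport, was lower by a log2 difference of -0.60 (limma adjusted p = 0.0239). It lost its call without MYB87-SRDX replicate 1 or 4 and without wild-type replicate 2 or 4, with adjusted p between 0.0524 and 0.0706. Under normexp background correction it was at -0.08 (adjusted p = 0.578). Its signal was low, with means of -6.54 in MYB87-SRDX and -5.94 in wild type.

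The remaining falls were small and had little spread. WRKY7 (AT4G24240), a calmodulin-binding group IId factor, averaged 0.65 ± 0.14 in MYB87-SRDX and 1.19 ± 0.10 in wild type, a difference of -0.54 (limma adjusted p = 0.00561). WRKY3 (AT2G03340), which acts with WRKY4 in resistance to necrotrophic fungi, differed by -0.42 (limma adjusted p = 0.00394), with means of 0.30 ± 0.05 in MYB87-SRDX and 0.72 ± 0.07 in wild type. With median scaling WRKY3 was at -0.33 and lost its call (adjusted p = 0.0657). WRKY32 (AT4G30935), a group I factor, differed by -0.25 (limma adjusted p = 0.0362), or by -0.16 with median scaling, where it was not called (adjusted p = 0.404). It was also lost on leaving out any 1 array other than MYB87-SRDX replicate 3 or wild-type replicate 1, with adjusted p between 0.0735 and 0.0922.

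The other 36 tested members did not pass the threshold, with log2 differences between -0.78 and 0.99. Several of the best studied factors were among them. WRKY33 (AT2G38470), the activator of camalexin synthesis, differed by -0.17 (95% interval -0.66 to 0.32). WRKY40 (AT1G80840) gave -3.60, -2.69, -3.97 and -3.25 in MYB87-SRDX and -2.03, -3.20, -3.65 and -3.92 in wild type, and its difference of -0.18 had an interval of -1.18 to 0.82. The interval of WRKY40 includes a 2-fold fall.

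WRKY70 (AT3G56400), which balances salicylate and jasmonate responses, and its relative WRKY54 (AT2G40750) differed by -0.73 and -0.78, with limma adjusted p of 0.102 and 0.07. Without MYB87-SRDX replicate 3 both passed the threshold (-0.95, adjusted p = 0.0442, and -1.03, adjusted p = 0.0155). WRKY12 (AT2G44745) and WRKY13 (AT4G39410), known for opposite effects on flowering time and for roles in secondary walls, differed by 0.80 and -0.29 (adjusted p = 0.153 and 0.349). WRKY75 (AT5G13080), a factor of phosphate starvation and senescence, differed by 0.51 (interval -0.20 to 1.21). The probes of WRKY65 (AT1G29280) and WRKY11 (AT4G31550) were among the brightest of the family, which does not rank their transcripts, and differed by -0.34 and -0.23 (adjusted p = 0.373 and 0.0632).

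The calls were also counted by structural group, without a test between these small groups. Beside each count stand the shares over all tested loci, 15.1% called higher and 12.5% lower. In group IIa, 2 of 3 members were higher and 0 lower, WRKY18 and WRKY60, with WRKY40 as the third. In group IIe, 2 of 7 were higher and 0 lower. Group III, with 8 of 9 members tested, had 2 higher (WRKY41 and WRKY53) and 1 lower (WRKY38). Group IId had 1 higher and 2 lower of 6, group IIc 1 higher and 2 lower of 12, and group IIb 0 higher and 1 lower of 7. Group I had 1 higher and 3 lower of 11 tested. The median log2 difference ranged from -0.32 in group IIb to 0.70 in group IIa.

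Relatives that share roles were set side by side within each array, as 12 pairs. They were chosen after the values of the members had been seen, so the gaps are a description, and no share over other pairs was taken. An exact permutation of the arrays gave a lowest adjusted p of 0.0571 (Benjamini-Hochberg over the 12 pairs), where the smallest p it can give is 0.0286. It cannot serve as a test of pairs picked in this way. Each gap is the log2 difference of the first gene minus that of the second, with its SE over 4 arrays of each genotype. The largest gap was that of WRKY8 and WRKY28, an activator of salicylate synthesis, at -1.27 ± 0.15. The gap of WRKY26 was 0.98 ± 0.18 to WRKY33 and 0.80 ± 0.21 to WRKY25. Within group IId, the gap was -0.78 ± 0.23 between WRKY17 and WRKY11 and -0.70 ± 0.10 between WRKY7 and WRKY15.

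Between WRKY41 and WRKY53 the gap was 0.67 ± 0.20, with both called higher. WRKY18 and WRKY40 gave 1.22 ± 0.48, a wide error, and WRKY40 ranged from -3.97 to -2.69 in MYB87-SRDX and from -3.92 to -2.03 in wild type. The gap was 0.05 ± 0.11 between WRKY70 and WRKY54 and -0.03 ± 0.14 between WRKY22 and WRKY29. For the remaining pairs it was 0.88 between WRKY60 and WRKY40, 0.71 between WRKY45 and WRKY75 and -0.20 between WRKY3 and WRKY4.

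**Figure D3:**
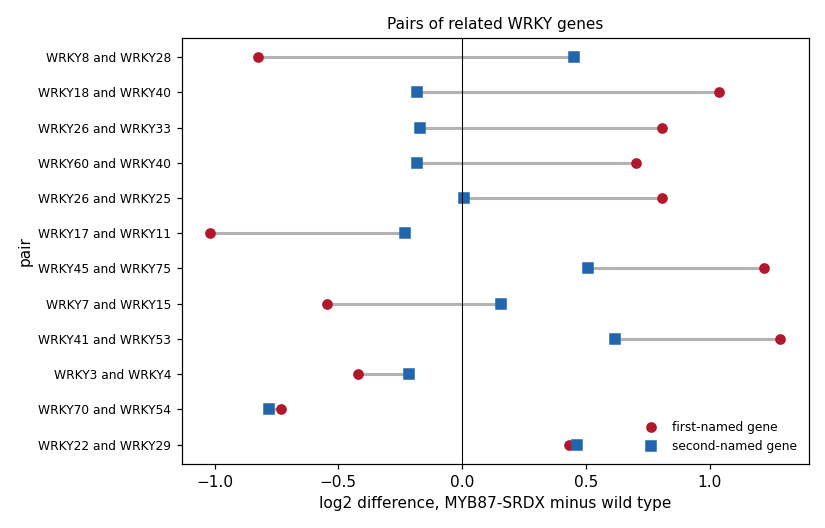
Log2 difference (MYB87-SRDX minus wild type, x axis) of both genes of each of the 12 pairs of related WRKY genes (y axis), with the members of a pair joined by a line. WRKY8 and WRKY28 lie farthest apart, at -0.82 and 0.45, and WRKY22 and WRKY29 lie nearly on top of each other, at 0.43 and 0.46.

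WRKY genes varied more between wild-type arrays than between MYB87-SRDX arrays. The median SD of a tested member was 0.169 in MYB87-SRDX and 0.344 in wild type, beside 0.132 and 0.149 for all tested loci. The members were also dimmer, with median levels of -1.32 in MYB87-SRDX and -1.49 in wild type, beside -0.36 and -0.35 for all tested loci. The part of signal level in the spread was not tested. The SD was larger in wild type for 39 of 54 members (72.2%) and for 58.5% of all tested loci. Wild-type replicate 1 was the highest wild-type array for 38 of 54 members (70.4%) and for 31.8% of all loci. WRKY40 at -2.03, WRKY75 at -1.62 and WRKY28 at -2.88 on that array are examples, each above the other wild-type arrays.

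Without wild-type replicate 1, 11 members were higher and 12 lower, and the median difference of the members was -0.06. Over all tested loci, 3088 were then higher and 2899 lower, where the counts with all arrays were 3064 and 2540. All 18 called members kept their call there, and WRKY2, WRKY13, WRKY28, WRKY54 and WRKY75 were called in addition. Root markers also varied over the wild-type arrays. The auxin transporter PIN2, expressed in root epidermis and cortex, gave -3.58, -3.52, -3.47 and -3.66 on the MYB87-SRDX arrays and -2.51, -3.50, -4.51 and -4.35 on the wild-type arrays. Of the 4 root markers (PIN2, NRT2.1, CASP1 and COBL9), 0 differed between the genotypes. Their mean, with each gene centred over the 8 arrays, ran from -0.49 to 0.41 in MYB87-SRDX and was 0.84, 0.37, -1.02 and -0.05 on the wild-type arrays, highest on replicate 1. Among the wild-type arrays, 3 of the 4 markers were highest on replicate 1, and NRT2.1 was highest on replicate 4, with -4.29, -4.00, -6.11 and -3.07. The part of root tissue in the spread of the WRKY genes was not tested.

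**Figure D4:**
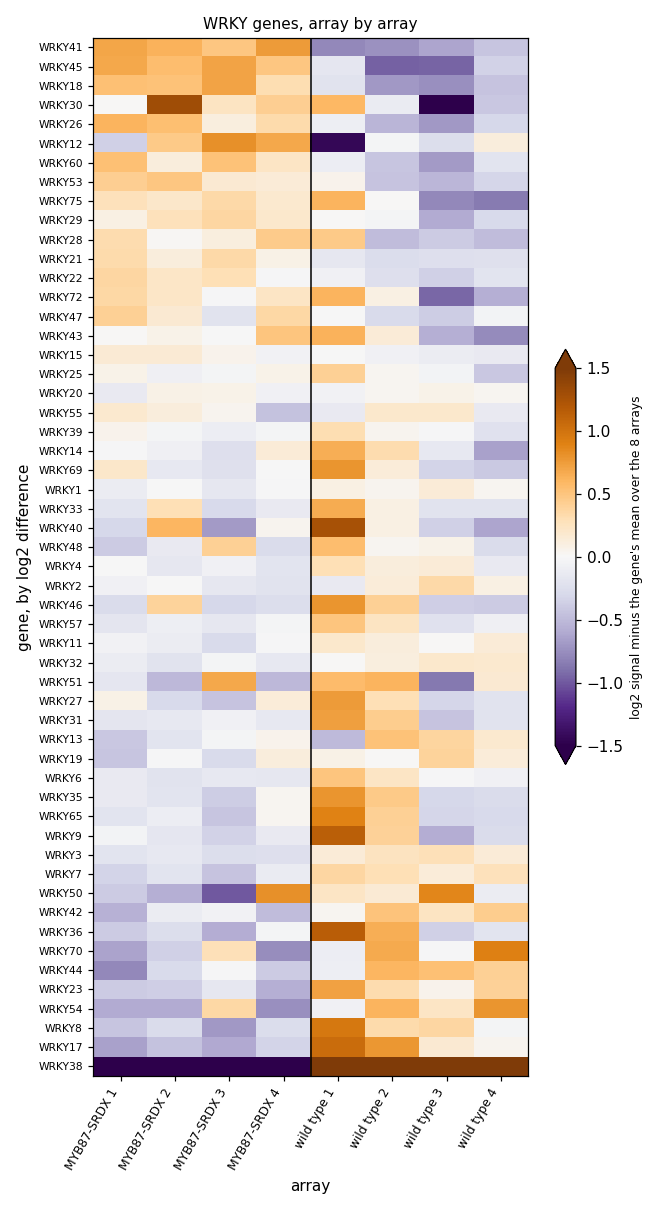
Log2 signal of each tested WRKY gene (rows, sorted by log2 difference) minus its mean over the 8 arrays, with the 4 MYB87-SRDX arrays (columns) left of the 4 wild-type arrays and colours limited to 1.5 in either direction. The column of wild-type replicate 1 is the highest wild-type value for 38 of the 54 genes.

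Markers of other tissues differed between the genotypes along with the WRKY genes. Lower in MYB87-SRDX were 3 of 3 xylem markers (IRX3, XCP1 and CESA4), 2 of 2 phloem markers (SUC2 and APL), 2 of 3 guard cell markers (KAT1 and FAMA) and 1 of 2 trichome markers (MYB106). The array means of the centred xylem markers ran from -0.73 to -0.30 in MYB87-SRDX and from 0.25 to 1.00 in wild type, without overlap. Those of the phloem markers ran from -0.63 to -0.10 in MYB87-SRDX and from 0.23 to 0.47 in wild type. Those of the guard cell markers ran from -0.40 to -0.20 in MYB87-SRDX and from 0.09 to 0.49 in wild type. Those of the trichome markers overlapped, from -0.57 to 0.14 in MYB87-SRDX and from -0.04 to 0.49 in wild type. Of the 4 leaf mesophyll markers, 1 was higher (LHCB2.1) and 1 lower (CAB1). Their array means also overlapped, from -0.21 to 0.20 in MYB87-SRDX and from -0.05 to 0.17 in wild type. Over all tested loci, 12.5% were called lower and 15.1% higher, and these short marker lists were not tested as sets. Among the seed markers, the storage protein gene CRA1 was at least 7.86-fold lower by the bound used for WRKY38, which is not strict. Without wild-type replicate 2 the bound was 4.57-fold. SESA1 and OLEO1 were not tested, and the flower markers AG, AP3 and AP1 had too little signal for a test. The part of these tissues in the WRKY values was not tested.

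The gene table names 16 further WRKY loci that the list leaves out. Of these, 9 were tested. WRKY58 (AT3G01080) was higher by a log2 difference of 0.61 (limma adjusted p = 0.0348) and WRKY74 (AT5G28650) lower, at -0.50 (limma adjusted p = 0.011), while the other 7 tested loci did not pass the threshold.

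Genes of pattern recognition, of its early response and of the MAP kinases were divided. Of 12 genes of pattern recognition and its early response, 4 were higher in MYB87-SRDX and 0 lower, where 15.1% of all tested loci were higher and 12.5% lower. FLS2, the flagellin receptor, gave -0.55, -0.68, -0.83 and -1.32 on the MYB87-SRDX arrays and -2.13, -2.10, -1.85 and -2.15 on the wild-type arrays, without overlap. Its log2 difference was 1.21 ± 0.16 (SE; limma adjusted p = 0.00303), and that of PHI-1, the largest of this list, was 1.30 ± 0.25 (SE; limma adjusted p = 0.00886). The receptor kinase gene FRK1, a target of the flagellin pathway, differed by 1.18 with an adjusted p of 0.0858. The MAP kinase genes that link receptors to WRKY factors gave 0 calls among 10 tested, with the largest difference at -0.59 for MPK11 (limma adjusted p = 0.471). At an unadjusted p below 0.05, limma also called 0 of these 10, and no other tool was run.

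Partner proteins and salicylate genes came next. Among 8 tested genes for VQ proteins, which bind WRKY domains, SIB1 was lower by a log2 difference of -0.86 (limma adjusted p = 0.0233), its paralog SIB2 was at 0.37 (adjusted p = 0.133), and MKS1, which ties WRKY33 to a MAP kinase, lacked signal. Of 17 salicylate regulators, 5 were lower and 0 higher with limma, and 7 were lower and 1 higher at an unadjusted p below 0.05. Over all tested loci, 12.5% were called lower and 15.1% higher. NIMIN1, which encodes a protein that binds the salicylate receptor NPR1, gave -6.02, -5.61, -5.68 and -6.21 in MYB87-SRDX and -5.11, -3.96, -4.91 and -4.29 in wild type. Its difference was -1.32 ± 0.27 (SE; limma adjusted p = 0.0108), with no overlap. NPR1 itself was at -0.01 and HDA19 at -0.11, neither past the threshold. The salicylate marker PR1 was well above background on no array, and PR2 and PR5 were at 0.15 and 0.44 (adjusted p = 0.909 and 0.261).

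Genes that WRKY factors are known to bind or to act beside were counted in the same way, and the all-locus shares of 15.1% higher and 12.5% lower stand for each count. Of 11 tested senescence genes, 5 were higher and 1 lower in MYB87-SRDX. SEN1, induced by darkness and senescence, gave 2.48, 2.31, 1.80 and 1.57 in MYB87-SRDX and -0.15, -0.13, 0.42 and -0.20 in wild type, a difference of 2.06 ± 0.23 (SE; limma adjusted p = 0.00175). The sugar transporter gene SAG29 was the one lower member (-1.02, adjusted p = 0.0334), and SAG12, the usual marker of leaf senescence, lacked signal for a test. Of 7 tested camalexin and ethylene genes bound by WRKY33, ACS6 was lower (-0.65, limma adjusted p = 0.0127). PAD3, the last enzyme of camalexin synthesis, gave -2.87, -1.51, -2.74 and -1.86 in MYB87-SRDX and 1.55, 0.30, -1.39 and -2.43 in wild type, so that its difference of -1.75 was within the spread of the wild-type arrays (adjusted p = 0.143).

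Phosphate starvation genes gave 2 higher and 0 lower of 7, led by SPX1 at 0.74 (limma adjusted p = 0.0082). Among 12 tested trichome and seed coat partners of TTG2, 1 was higher and 3 were lower. GL3, a bHLH factor of trichome initiation, was lower by a log2 difference of -0.79 (limma adjusted p = 0.0128), and TTG1 was at -0.00 (adjusted p = 0.978). TT2, a MYB factor of seed coat tannins, was well above background on 3 MYB87-SRDX and 0 wild-type arrays. The bound used for WRKY38, turned to the wild-type side, gave 1.47-fold higher, or 1.26-fold to 1.87-fold on leaving out each MYB87-SRDX array. It is not strict here either. Its MYB87-SRDX mean takes in replicate 4 at -7.62, under the lowest signal well above background on that array (-6.95). The limma adjusted p of 0.00223 for TT2 belongs to a fitted difference that rests on wild-type signal below background, not to this bound. Of the genes linked to WRKY12 and WRKY13, 3 of 6 were tested. FUL, a MADS factor of flowering, was lower in every MYB87-SRDX array, by a log2 difference of -2.44 ± 0.17 (SE; limma adjusted p = 0.000565), as was the secondary wall regulator MYB46 (-0.91, adjusted p = 0.00736). Of 4 tested abscisate genes linked to WRKY18, WRKY40 and WRKY60, RAV1 was higher (0.99, limma adjusted p = 0.00085).

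**Figure D5:**
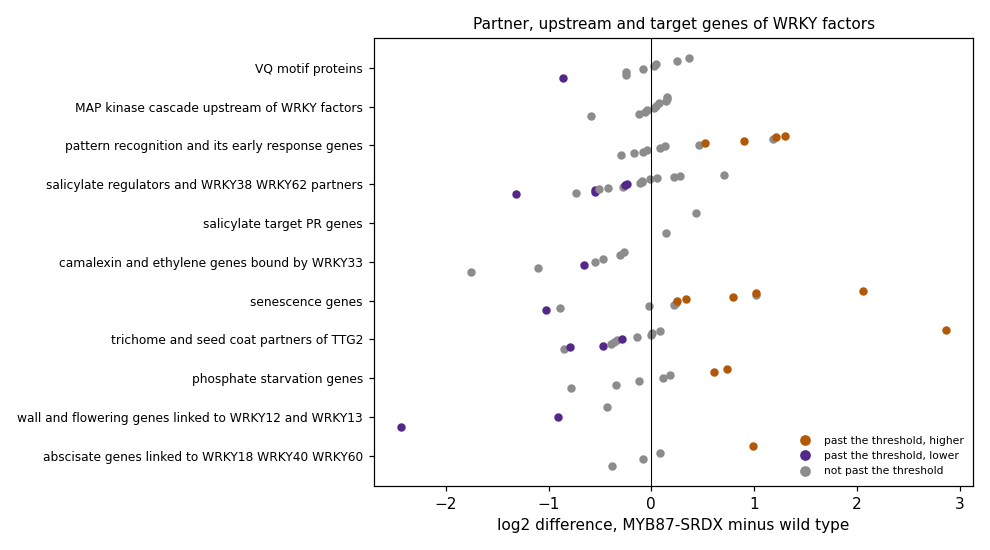
Log2 difference (MYB87-SRDX minus wild type, x axis) of every tested gene in the lists of partners, upstream genes and targets of WRKY factors (y axis), with each point a gene. The salicylate regulators hold 5 genes called lower and 0 higher, and pattern recognition and its early response genes hold 4 called higher and 0 lower.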

How the data were processed

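The deposited scanner tables hold a linear intensity and processed signal for each spot. The submitters' processing notes name Agilent Feature Extraction 9.1.3.1. The log2 processed signal, without control spots and outlier flags, was reduced by each array's 75th percentile. The authors' deposited value table holds the same signal times 0.001175 (MYB87-SRDX) or 0.001094 (wild type), as found by division. Its column medians were 0.108, 0.133, 0.114 and 0.114 for MYB87-SRDX and 0.129, 0.15, 0.123 and 0.105 for wild type, so its scale is linear, with no centring between arrays. The sources used here do not say why the factors differ.

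A locus was tested when its probe rose well above background on 3 or more arrays of either genotype. Every listed WRKY locus had 1 probe, and 49 of 54 tested members were well above background on all 8 arrays. Probe sequences were not used here, so hybridisation between relatives was not tested. Differences were tested over all 20336 loci with limma 3.58.1 (lmFit, eBayes) in R 4.3.3, Benjamini-Hochberg adjustment and a threshold of 0.05. Symbols came from the TAIR10.1 gene table. Alternatives were quantile and median scaling, normexp (offset 50, without 8 spots whose local background exceeded 200), the authors' values, a replicate block, array weights, averaging probes per locus, eBayes with trend and robust, no filter or a stricter filter, and leaving out each array.

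The members, gene lists and pairs were chosen with earlier results of these data known. Any listed member could be named, with values for WRKY38, WRKY62, every called member, the 3 brightest and members known for a role, and array by array values for the 3 largest rises and falls beside WRKY38. In each gene list the rule took the largest called rise and fall plus PR1, PR2, PR5, NPR1, HDA19, PAD3, FRK1, TTG1, MKS1, SIB1 and SIB2. FLS2, MPK11, SAG12, MYB46, WRKY58 and WRKY74 were named beyond that rule after their values were seen.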

Additional observations from a re-analysis of the deposited data

Results flagged for a closer look

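In 4 of 108 groups of 4 arrays, the highest array of a WRKY gene stood apart from the other 3 by Dixon's criterion at the 95% level, which chance alone meets in about 1 of 20 groups. WRKY28 was at -2.88 on wild-type replicate 1, with the other wild-type arrays between -3.84 and -3.74. WRKY43 was at -6.34 on MYB87-SRDX replicate 4, with the others of that genotype between -6.84 and -6.77. WRKY46 was at -2.59 on MYB87-SRDX replicate 2, with the others between -3.30 and -3.23. WRKY54 was at -2.29 on MYB87-SRDX replicate 3, with the others between -3.39 and -3.24, and was called lower without that array.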

How the results depend on the processing

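Of the 18 called members, 9 kept their call in every alternative that gave a value (WRKY7, WRKY17, WRKY18, WRKY23, WRKY26, WRKY38, WRKY41, WRKY45 and WRKY60), and 0 turned direction. The count of members called lower was 5 with median scaling and 5 with the authors' values, which are not scaled between arrays, where it was 9 in the main setting. These settings lost 4 and 7 of the 18 calls. Both lost WRKY3, WRKY32, WRKY42 and WRKY44, and the authors' values also lost WRKY21, WRKY22 and WRKY29. Leaving out 1 array in turn gave between 6 and 11 members higher and between 5 and 12 lower, and a WRKY38 difference between -4.69 and -4.42. Over all loci, 3064 were higher and 2540 lower. The authors' values gave 1102 and 1095, median scaling gave 1381 lower, and leaving out an array gave as few as 1556 higher and 1371 lower. Same-numbered arrays of the genotypes correlated by 0.0947, 0.0897, 0.155 and -0.223. The highest correlation with a differently numbered wild-type array was 0.00134, 0.0858, 0.293 and 0.243. The same number was the best match for replicates 1 and 2 but not for 3 and 4, so the numbers were not taken as pairs. With a replicate block, 10 members were higher and 7 lower, and 1812 loci were higher over all. WRKY8, WRKY29 and WRKY32 lost their calls there. The block left the WRKY38 difference at -4.56 (adjusted p = 0.00436). A further 12 members were called only in an alternative. WRKY38 gave no value when signal well above background was required on all arrays, and WRKY62 gave none in the main setting. Low signal limits both. The causes of these shifts were not tested.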

Other observations

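The nearest neighbours of WRKY38 with enough signal to be tested did not pass the threshold. In the order of the gene table, AT5G22580 follows WRKY38 directly and differed by -0.26 (limma adjusted p = 0.317), and AT5G22550, the third locus before it, differed by -0.76 (limma adjusted p = 0.0769). The locus directly before, AT5G22560, was well above background on no array and was not tested. Its log2 signal ran from -9.42 to -9.13 in MYB87-SRDX and from -8.88 to -7.46 in wild type. AT5G22555, which lies between AT5G22550 and AT5G22560, was also not tested. It was well above background on 1 MYB87-SRDX array and 2 wild-type arrays.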
